A study of Homo sapiens with 8 samples.

Results

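Proteasome subunit mRNAs were taken as every gene whose symbol begins with PSMA, PSMB, PSMC or PSMD and ends in a number. This rule found 39 of the 59414 genes in the count table: 8 alpha (PSMA), 11 beta (PSMB), 6 ATPase (PSMC) and 14 non-ATPase (PSMD) genes. Between 30 and 31 of them were listed in each of the 4 editing tables. The proteasome is the protease that degrades ubiquitin-tagged proteins in the cytosol and nucleus of every human cell. Its barrel-shaped core particle has outer rings of alpha subunits, which gate the entry, and inner rings of beta subunits, some of which carry the proteolytic sites. The regulatory particle that caps the core consists of a base, with a ring of ATPases that unfold the substrate, and a lid of non-ATPase subunits that removes ubiquitin. The subunits assemble in fixed proportions, and their genes are known to be induced together when proteasome activity falls short.

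The cells were HEK293T, a kidney-derived embryonic cell line in wide laboratory use. All 8 libraries came from cells that carried a pair of RNA editors (PB-TRIBE-STAMP) aimed at processing bodies (P-bodies), the cytoplasmic granules in which untranslated mRNA and mRNA decay proteins collect. Of these, TRIBE converts adenosine into inosine (A-to-I) and STAMP converts cytidine into uridine (C-to-U), so that edited bases mark mRNAs that were near the editors. Sorted P-bodies, labelled total RNA with 50 ng of input, were compared with cytosol, labelled cytoplasmic RNA with 100 ng of input. Cells given an siRNA against EDC4 (siEDC4), a scaffold of the decapping complex, were compared with cells given the siRNA labelled siNC, both labelled polyA RNA with 500 ng of input. Each group had 2 libraries, numbered by the batch the labels give. Nothing in the labels says that they came from separate cultures, so the p-values measure the spread between these libraries. No library without the editors was analysed here.

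The sort libraries held 21186963 to 23716926 counts. HEK293T genes such as GATA3, NEFL and LIN28B were counted in all 4, and CD3E of T cells and KRT19 of epithelia were at 0. Other epithelial genes (CDH1 and EPCAM) and the fibroblast gene COL1A1 were counted in all 4 as well. Scaled to library size, CDH1 was above the HEK293T gene PAX2 in each library, and COL1A1 was below GATA3. These markers alone therefore do not settle the cell type, which is taken from the labels. Mitochondrially encoded genes took 1.70% and 1.04% of counts in the sorted P-body libraries, against 6.57% and 6.41% in the cytosol libraries. The part of that difference in the results below was not tested. Fraction and RNA input moved together and cannot be told apart. Against each other the sorted P-body libraries deviated more than the cytosol libraries did, with a chi-square per degree of freedom of 25.4 in sorted P-bodies and 3.23 in cytosol. In the knockdown the siNC libraries gave 1.02 (p = 0.0619, chi-square test), within sampling noise, and were counted as 1 sample.

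The first comparison asks whether subunit mRNAs took a larger or smaller share of the RNA in sorted P-bodies than in cytosol. Of 34 members that passed the low-count filter, 8 were higher in sorted P-bodies, 17 were lower and 9 did not pass the test (edgeR quasi-likelihood test, Benjamini-Hochberg adjusted p under 0.05). Over all 18745 genes tested, 28.8% were higher and 29% were lower. The members' median log2 fold change was -0.34, beside -0.03 over all genes. The classes differed in their counts. None of the 8 beta members tested was higher and 7 were lower, whereas 3 of 6 ATPase members were higher and 1 was lower. Among alpha members 1 of 7 was higher and 1 lower, and among non-ATPase members 4 of 13 were higher and 8 lower. For the core particle as a whole the counts were 1 higher and 8 lower of 15. For ATPase and non-ATPase genes together they were 7 higher and 9 lower of 19. The 9 include PSMD9 and PSMD10, which are assembly chaperones of the base and not subunits of the regulatory particle. All 25 called members moved the same way in both batches. The number called higher depended on single libraries: it was 5 without cytosol library 1 and 12 without sorted P-body library 2. In bulk libraries such as these, fewer particles or cells with an mRNA and less of that mRNA in each cannot be told apart.

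**Figure D1:**
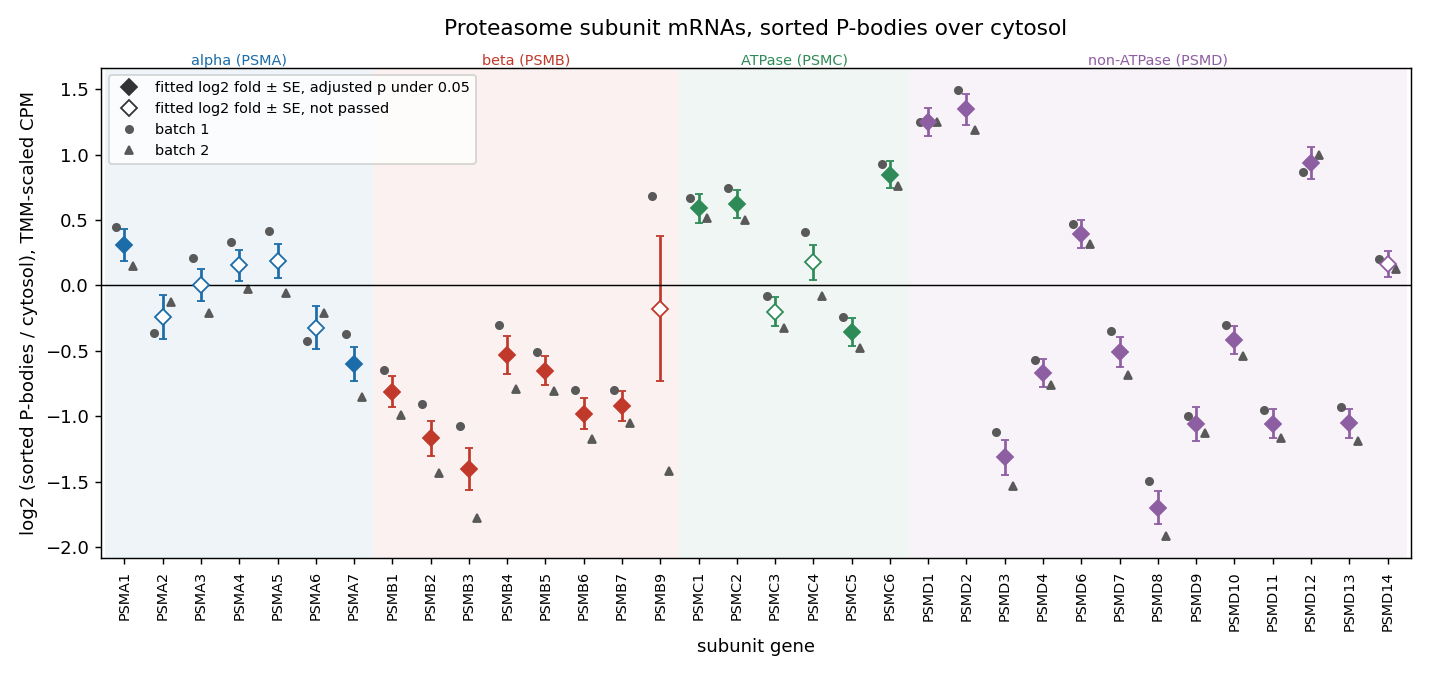
Log2 ratio of TMM-scaled CPM, sorted P-bodies over cytosol, for the 34 members that passed the filter, by class. Diamonds give the fitted fold change ± SE (filled where the adjusted p was under 0.05), circles batch 1 and triangles batch 2. The filled beta diamonds all lie below 0, and PSMD1, PSMD2 and PSMD12 lie highest.

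The 3 largest rises were PSMD2, PSMD1 and PSMD12, and the 3 largest falls were PSMD8, PSMB3 and PSMD3. These 6 mRNAs are shown by the middle 30 codons of their coding sequence, because the members' changes went with the base at the third codon position, as described with the codon features. Sequences are read from GENCODE v29 transcripts of hg38, 5′ to 3′, and capitals mark A or T at the third position of a codon.
PSMD2: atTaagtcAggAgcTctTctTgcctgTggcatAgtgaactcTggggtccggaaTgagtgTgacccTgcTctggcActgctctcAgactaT
PSMD1: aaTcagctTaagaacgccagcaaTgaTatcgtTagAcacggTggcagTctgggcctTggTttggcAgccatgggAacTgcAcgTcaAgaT
PSMD12: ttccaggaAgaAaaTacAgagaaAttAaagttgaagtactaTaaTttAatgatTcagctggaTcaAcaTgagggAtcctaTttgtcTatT
PSMD8: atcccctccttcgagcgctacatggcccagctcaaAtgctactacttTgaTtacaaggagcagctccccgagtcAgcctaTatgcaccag
PSMB3: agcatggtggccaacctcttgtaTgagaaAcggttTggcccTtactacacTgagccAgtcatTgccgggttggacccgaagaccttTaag
PSMD3: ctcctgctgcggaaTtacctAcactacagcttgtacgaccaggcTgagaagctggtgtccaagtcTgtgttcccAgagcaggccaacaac
In these stretches 16 (PSMD2), 17 (PSMD1) and 17 (PSMD12) of 30 codons ended in A or T, against 5 (PSMD8), 8 (PSMB3) and 5 (PSMD3). The first 3 stretches are thus close to even and the other 3 are mostly G- or C-ending. That split did not hold for all members called lower. At least 17 of 30 codons ended in A or T in PSMD7 (21), PSMD4 (18), PSMB7, PSMC5 and PSMD10 (17 each). PSMB5, also called lower, had 16, as many as PSMD2, and the other members called lower had fewer. A stretch can also differ from its whole coding sequence. Over all codons of PSMD2, 59.6% ended in G or C, beside a median of 59.2% for members called lower.

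PSMD2 and PSMD1, the large scaffold subunits of the base, had the largest rises of any member. With the trend over gene length removed PSMD2 kept its log2 rise (1.34), while PSMD1 (0.78) came below PSMD12 (0.91). PSMD2 (chr3:184299198-184309050, plus strand of hg38 as deposited), which docks the shuttle factors that deliver ubiquitinated proteins, had 522 and 448 TMM-scaled counts (CPM, counts scaled to a common library size) in sorted P-bodies, against 185 and 196 CPM in cytosol. PSMD1 (chr2:231056845-231173116, plus strand) had 356 and 372 CPM in sorted P-bodies, against 149.7 and 156 CPM in cytosol. The groups do not overlap for either gene. With 2 libraries per group such separation is frequent without any change, and its share over all genes was not counted, here or below. The fold changes were 2.54 for PSMD2 (log2 1.35 ± 0.12 SE, adjusted p = 1.53e-05) and 2.38 for PSMD1 (log2 1.25 ± 0.11 SE, adjusted p = 1.29e-05). Together they made up 24.1% and 24.7% of all member counts in sorted P-bodies, against 9.70% and 9.48% in cytosol. The third base subunit without ATPase activity, the ubiquitin receptor PSMD4, went the other way, with 92.3 and 88.4 CPM in sorted P-bodies, against 137 and 149.7 CPM in cytosol (log2 -0.67 ± 0.11 SE, adjusted p = 0.000515).

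Lid subunits were split. PSMD8 (chr19:38374550-38383824, plus strand), a lid subunit of the PCI-domain family, had the largest fall of any member: 52.6 and 43.0 CPM in sorted P-bodies, against 148 and 162 CPM in cytosol. It was 3.25-fold lower (log2 -1.70 ± 0.13 SE, adjusted p = 6.81e-06). PSMD3 (log2 -1.31), PSMD11 (-1.06), PSMD13 (-1.05) and PSMD7 (-0.51), the catalytically inactive partner of the lid's deubiquitinase, fell too, PSMD7 not when cytosol library 2 was left out. PSMD12 (chr17:67337916-67366605, minus strand), another PCI-domain subunit, instead had 254 and 298 CPM in sorted P-bodies against 139 and 149 CPM in cytosol, 1.92-fold higher (log2 0.94 ± 0.12 SE, adjusted p = 0.00012). PSMD6 was also higher (log2 0.39 ± 0.11 SE, adjusted p = 0.00982), though not with library-size scaling, with the length trend removed or with either cytosol library left out. The deubiquitinase itself, PSMD14, had 105 and 102 CPM in sorted P-bodies, against 91.5 and 93.4 CPM in cytosol. Its groups do not overlap, but the change of 0.16 ± 0.10 SE on the log2 scale did not pass (adjusted p = 0.197).

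Every constitutive beta subunit was lower in sorted P-bodies. Of the 3 that carry the proteolytic sites, PSMB5 (chymotrypsin-like) had 67.8 and 58.8 CPM in sorted P-bodies against 96.4 and 103 CPM in cytosol. PSMB6 (caspase-like) had 36.2 and 30.7 CPM in sorted P-bodies, against 62.8 and 69.2 CPM in cytosol. PSMB7 (trypsin-like) had 87.2 and 77.0 CPM in sorted P-bodies, against 152 and 159.6 CPM in cytosol. The groups are separate for all 3, with log2 fold changes of -0.65, -0.98 and -0.92 and adjusted p-values of 0.000755, 7.33e-05 and 8.78e-05. The structural beta subunits fell by 0.53 (PSMB4), 0.81 (PSMB1), 1.17 (PSMB2) and 1.40 (PSMB3) on the log2 scale, PSMB4 not with the length trend removed. PSMB3 (chr17:38752741-38764225, plus strand) had 44.2 and 30.3 CPM in sorted P-bodies, against 93.3 and 104 CPM in cytosol, 2.64-fold lower (adjusted p = 6.73e-05). Beta genes as a class took 15.1% and 13.5% of member counts in sorted P-bodies, against 25.7% and 26.1% in cytosol. No beta gene was higher at an unadjusted p under 0.05 either, in edgeR or in DESeq2.

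The alpha subunits moved little. PSMA7 was lower, with 73.4 and 58.0 CPM in sorted P-bodies, against 95.0 and 105 CPM in cytosol (log2 -0.60 ± 0.13 SE, adjusted p = 0.00297). PSMA1 had 38.1 and 30.9 CPM in sorted P-bodies, against 27.9 and 27.8 CPM in cytosol, a rise of 0.31 ± 0.12 SE at the edge of the threshold (adjusted p = 0.0497). That call was lost under DESeq2, library-size scaling, no filter, and without sorted P-body library 1 or either cytosol library. The other 5 alpha members tested had log2 fold changes between -0.32 (PSMA6) and 0.19 (PSMA5). With the length trend removed PSMA2 (log2 -0.47) and PSMA6 (-0.44) were called lower, PSMA6 also with library-size scaling. Alpha genes held 14.6% and 13.6% of member counts in sorted P-bodies, against 13.4% and 13.8% in cytosol.

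Within the ATPase ring, which forms as a hexamer of different subunits, PSMC6 rose most. It had 132 and 122 CPM in sorted P-bodies, against 69.1 and 71.6 CPM in cytosol (1.80-fold, log2 0.85 ± 0.11 SE, adjusted p = 9.74e-05). PSMC2 (log2 0.62 ± 0.11 SE, adjusted p = 0.000818) and PSMC1 (log2 0.59 ± 0.11 SE, adjusted p = 0.00124) were higher as well. PSMC5 was lower, with 73.4 and 65.5 CPM in sorted P-bodies, against 86.8 and 91.3 CPM in cytosol (log2 -0.36 ± 0.11 SE, adjusted p = 0.0165), a call lost when either cytosol library was left out. PSMC3 (-0.20) and PSMC4 (0.18) did not pass. PSMC4 was called higher with the length trend removed (log2 0.39), and PSMC3 lower with library-size scaling (log2 -0.40). PSMC1 is uncertain, since 76.1% of its gene model is covered by NRDE2 on the opposite strand and the use of strand in counting is not given in the sources used here. Its call was also lost without cytosol library 1 (adjusted p = 0.0793). FTSJ3 on the opposite strand covers 15.3% of the PSMC5 model. The lid gene PSMD7 has 31.2% of its model covered by AC009120.2, also on the opposite strand.

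The assembly chaperones of the base that carry PSMD symbols were lower where measured. PSMD9 had 8.03 and 7.21 CPM in sorted P-bodies, against 16.0 and 15.8 CPM in cytosol (log2 -1.06 ± 0.13 SE), and PSMD10, also called gankyrin, fell by 0.42 ± 0.11 SE (adjusted p = 0.00741), a call lost with the length trend removed or without cytosol library 2. The third chaperone, PSMD5, had 3 counts over all 4 libraries. The interferon-induced immunoproteasome subunits were close to absent: PSMB8 had 4 and 0 counts in sorted P-bodies, against 3 and 10 in cytosol, PSMB10 had 2 and 1 in sorted P-bodies against 4 and 2 in cytosol, and PSMB9 had 13 and 4 in sorted P-bodies against 9 and 14 in cytosol. PSMB9 alone passed the filter, and its change of -0.18 ± 0.55 SE did not pass the test. PSMA8 of the testis had no count and PSMB11 of the thymus had 3 in all. The alpha genes PSMA2 and PSMA6 were low but measurable, at 3.57 ± 0.47 and 5.52 ± 0.12 RPKM in sorted P-bodies, against 4.20 ± 0.07 and 6.90 ± 0.86 RPKM in cytosol (SD, n = 2). The other alpha genes tested averaged from 21.3 RPKM (PSMA5) to 74.8 RPKM (PSMA3) in sorted P-bodies and from 18.5 RPKM (PSMA1) to 100.3 RPKM (PSMA7) in cytosol. RPKM here is CPM per kilobase of principal transcript. How reads that match several places were counted is not given in the sources used here. Pseudogene copies annotated for members held 156 counts beside 321232 of the members. If such reads were dropped they would be missing from both, so these counts cannot show whether members lost reads. PSMA2 and PSMA6 have 3 and 4 annotated pseudogenes, and other genes on the same strand cover 17.2% and 14.1% of their models. Whether this lowered their levels was not tested.

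Of 28 genes that work with the proteasome, such as activators, assembly factors and shuttle factors, 6 were higher, 17 were lower and 5 did not pass in sorted P-bodies. The largest rises were those of UCHL5 (log2 0.91) and USP14 (log2 0.76), deubiquitinases that bind the regulatory particle, and of NGLY1 (log2 0.62), the glycanase that acts on the transcription factor of the subunit genes. Falls included those of the activator PSME1 (log2 -1.69) and the core regulator PSMF1 (log2 -1.10). The list's median was -0.52 on the log2 scale, beside -0.03 over all genes.

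Batch 2 gave a lower ratio than batch 1 in 30 of the 34 members (88.2%), with a median difference of -0.28 on the log2 scale. Over all genes tested it was lower in 54.3%, with a median difference of -0.04. The members' shift between batches is therefore larger than that of the table as a whole, although every called member kept its direction in both batches.

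The members differ in codon use, which the rule did not use. Members called higher had a median of 42.7% G or C at the third codon position (GC3), those called lower 59.2% and those not passed 39.9%. Across 34 members the Spearman correlation of GC3 with the log2 fold change was -0.59 (Pearson -0.59), and across 13522 genes -0.53 (Pearson -0.52). The points share their libraries and depth and are described only. Coding length ran the other way, with a Spearman correlation of 0.44 over the members and 0.37 over 13598 genes. The median coding length was 1312.5 bases for members called higher and 795 bases for those called lower. Members nevertheless sat low for their GC3. Set against all genes of the same GC3 decile, 18 of 34 lay below the decile's lower quartile, 13 lay within the quartiles and 3 above the upper one. PSMD2 was the largest departure upwards: its GC3 was 59.6%, in a decile with a median of -0.27, and its log2 fold change was 1.35. PSMD1 and PSMC4 were the other 2 above. The alpha genes PSMA1, PSMA2, PSMA3, PSMA4 and PSMA6 had GC3 between 30.7% and 37.2% and all lay below, as did 5 beta genes and 8 non-ATPase genes. All 6 ATPase genes lay within or above the quartiles.

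**Figure D2:**
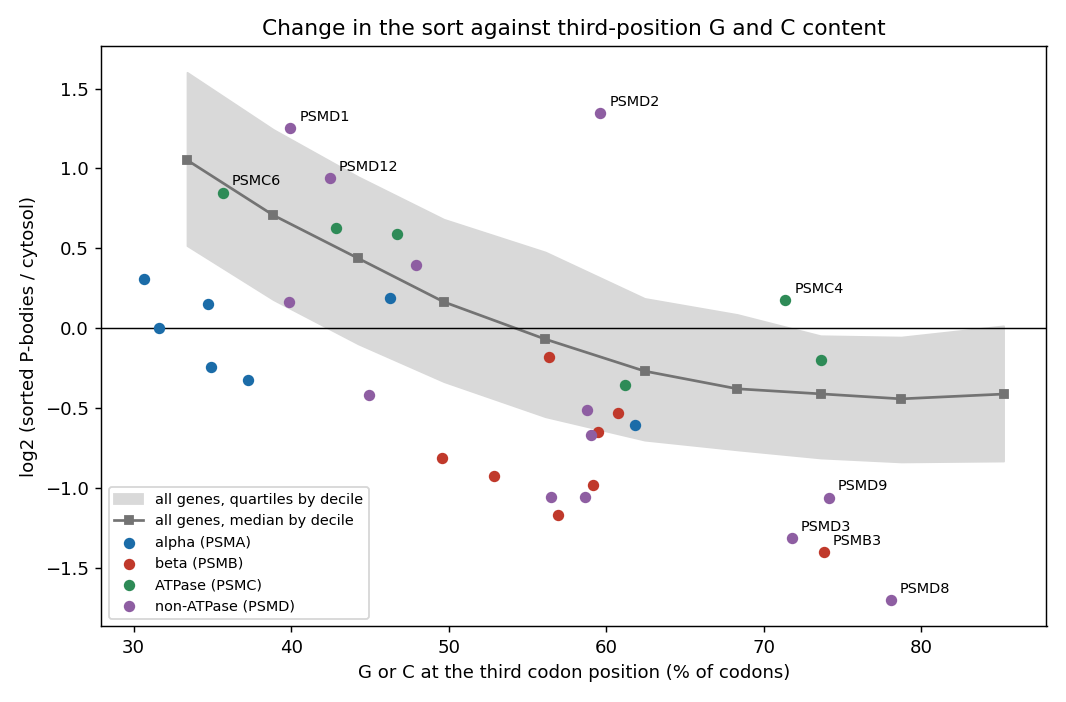
Log2 ratio, sorted P-bodies over cytosol, against the percentage of codons with G or C at the third position. Points are the 34 members, the grey line is the median of all genes by GC3 decile and the band spans their quartiles. PSMD2 lies above the band and 18 members lie below it.

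The second question is which subunit mRNAs carried more edited bases in the sort. The editing score is the percentage of a gene's reads that carry an edit, as deposited. The rule for calling a site edited is not given in the sources used here, so a score of 0 is only a listed 0. For A-to-I editing 31 members were listed and tested, and 27 were higher in sorted P-bodies, 1 was lower and 3 did not pass (edgeR on edited and unedited reads). Of all 11303 genes tested, 73.5% were higher and 1.08% lower, so most members moved with the table. The members' median log2 odds ratio was 1.78, beside 1.46 over all genes. The members' median score was 6.84% and 6.61% in the sorted P-body libraries, against 1.79% and 1.53% in the cytosol libraries. Over all listed genes the medians were 6.82% and 6.97% in sorted P-bodies, against 2.74% and 2.63% in cytosol. When each library was centred on its median, 10 members were higher and 6 lower, beside 16.9% and 12.4% of all genes.

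PSMD4, the ubiquitin receptor, had the highest A-to-I scores in sorted P-bodies, at 13.0% and 15.2% against 3.91% and 3.15% in cytosol (log2 odds 2.16 ± 0.18 SE, adjusted p = 2.31e-08). PSMA5 had 3.04% and 4.39% in sorted P-bodies, against 0.392% and 0% in cytosol, where 5 of 2717 reads were edited, a ratio of pooled scores of 19.4 (95% exact interval 7.97 to 61.6). PSMD6 had 9.74% and 9.19% in sorted P-bodies, against 1.05% and 0.257% in cytosol, a ratio of 14.8 (10.2 to 22.4). The groups are separate in each of these genes. PSMA3 (log2 odds 3.96), PSMD10 (3.68), PSMD7 (2.81) and PSMD13 (2.64) rose too, and all 7 stayed higher after centring. PSMD9 (3.00) rose on few edited reads, 5 in sorted P-bodies against 2 in cytosol, and lost its call after centring and without sorted P-body library 2 or either cytosol library. The size of some of these rises moved with the cytosol library used. The log2 odds ratio of PSMD6, 4.01 with all libraries, was 5.31 without cytosol library 1 and 3.30 without cytosol library 2. That of PSMA5, 4.27 with all libraries, was 3.21 without cytosol library 2, and that of PSMA3 was 3.03 without cytosol library 1. Leaving out the other cytosol library left no edited cytosol read in PSMA5 or PSMA3, so no size is given there. Such intervals pool the 2 libraries of a group and hold for counting error alone, not for the spread between libraries. Nor do they allow for PCR copies, which were not marked by molecular identifiers.

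In the ATPase ring all 6 members were higher, from log2 odds of 0.80 (PSMC4) to 1.88 (PSMC2). PSMC2 had 4.33% and 4.18% in sorted P-bodies, against 1.55% and 0.872% in cytosol. After centring no ATPase gene was called higher and PSMC4 was called lower (log2 odds -0.61), so the ring's A-to-I changes lay near the table's centre. The catalytic beta genes PSMB5 (7.96% and 5.84% in sorted P-bodies against 4.32% and 4.40% in cytosol) and PSMB7 (2.85% and 3.00% in sorted P-bodies against 1.43% and 1.53% in cytosol) were higher, with log2 odds of 0.73 and 1.00. The call of PSMB5 was lost without sorted P-body library 1, and after centring PSMB5 was called lower (log2 odds -0.67, adjusted p = 0.0202, edgeR). The call of PSMB7 was lost under limma (adjusted p = 0.0554) and after centring (log2 odds -0.41). PSMB6 stayed under 1%, at 0.888% and 0.519% in sorted P-bodies, against 0.245% and 0.221% in cytosol, and did not pass (adjusted p = 0.072). PSMB3 rose most among beta genes, with 3.20% and 3.87% in sorted P-bodies against 0.465% and 1.14% in cytosol (log2 odds 2.12 ± 0.43 SE, adjusted p = 0.00031, and log2 odds 2.92 without cytosol library 2). The lid deubiquitinase PSMD14 had 7.23% and 7.04% in sorted P-bodies, against 2.12% and 1.51% in cytosol (log2 odds 2.06 ± 0.23 SE, adjusted p = 5.27e-07).

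PSMB4 was the exception in direction. Its score was 10.2% and 11.7% in sorted P-bodies, against 13.1% and 13.5% in cytosol, the highest cytosolic A-to-I scores of any member. The fall of 0.34 ± 0.15 SE in log2 odds was close to the threshold (adjusted p = 0.0481). It was lost with the replicate block (adjusted p = 0.113), under limma and when any 1 library was left out. PSMD2 and PSMD8 did not pass. With library medians centred, PSMB4, PSMD2 and PSMD8 were all called lower, that is below the table's centre. Their centred log2 odds were -1.75 (adjusted p = 9.16e-09), -1.33 (adjusted p = 1.36e-06) and -1.02 (adjusted p = 0.000824, edgeR). PSMD2 had 3.00% and 3.33% in sorted P-bodies, against 3.32% and 2.69% in cytosol, with overlapping groups, from 12907 and 7455 reads. PSMD8 had 5.50% and 7.69% in sorted P-bodies, against 4.83% and 5.05% in cytosol (adjusted p = 0.114).

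**Figure D3:**
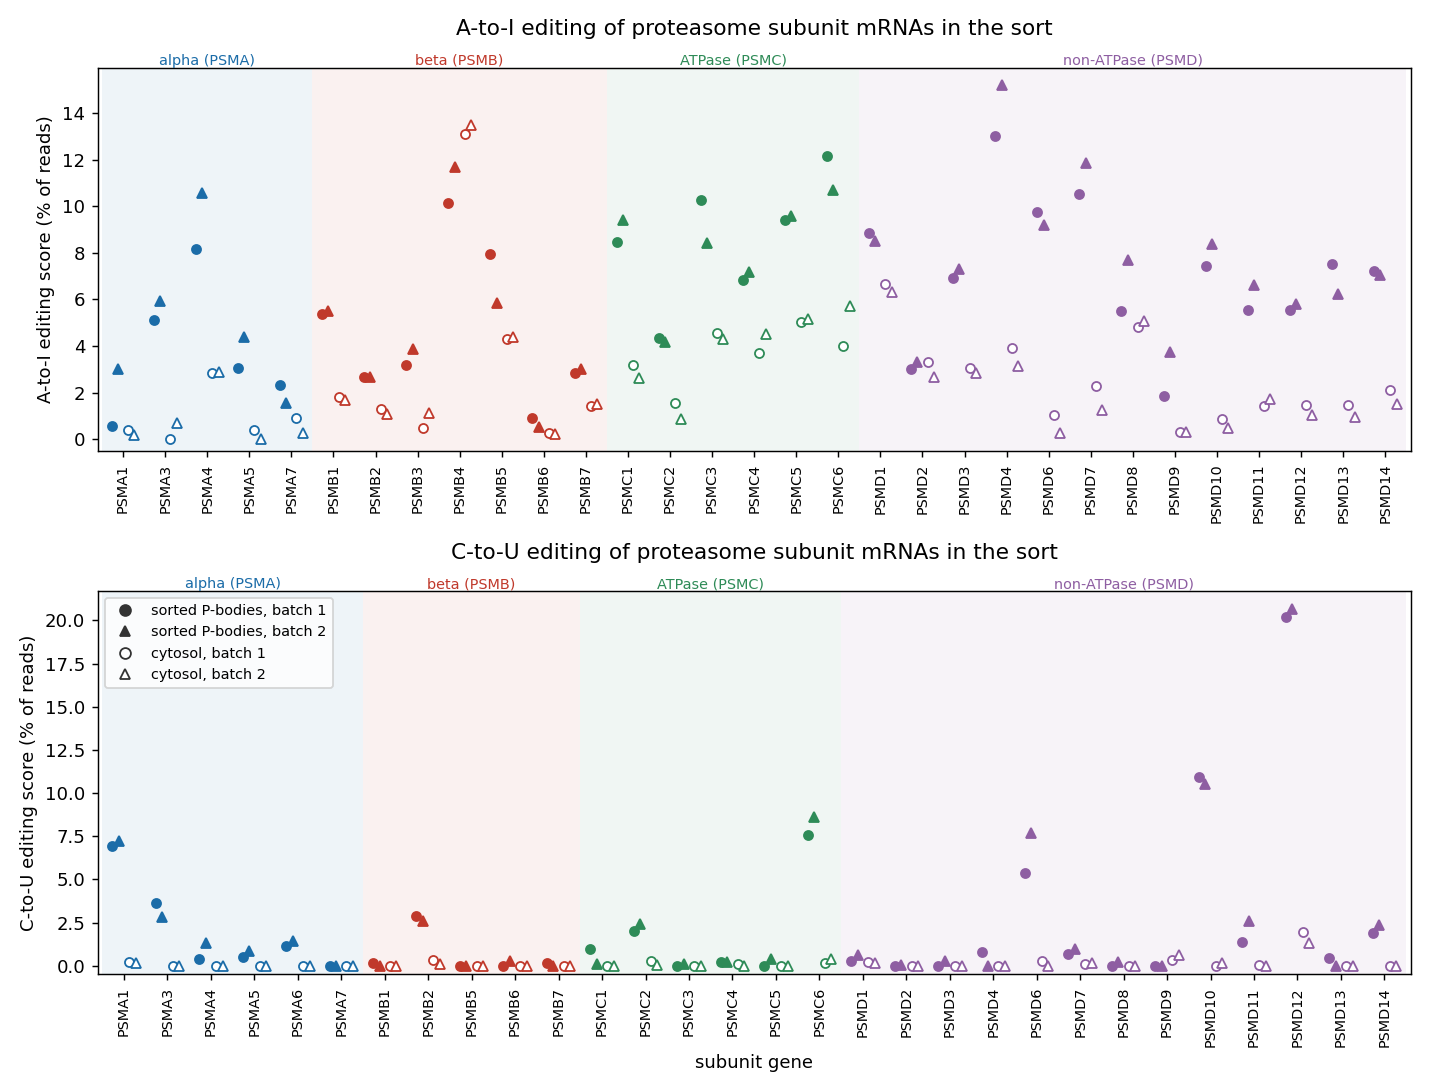
Editing scores (% of a gene's reads) of the members listed in the sort tables, A-to-I above and C-to-U below. Filled symbols are sorted P-bodies and open symbols cytosol, with circles for batch 1 and triangles for batch 2. PSMB4 is higher in cytosol for A-to-I, and PSMD12 has the highest C-to-U scores.

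C-to-U editing was concentrated in fewer members. Of 30 listed, 18 had an edited read in at least 2 libraries and were tested: 14 were higher in sorted P-bodies, none was lower and 4 did not pass. Of the 18, 6 had no edited read in cytosol: PSMA3, PSMA4, PSMA5, PSMA6, PSMC1 and PSMD14. They passed this filter through sorted P-bodies alone and could only come out higher. All of them but PSMA6 are among the 14. Of all 10613 genes tested, 68% were higher and 0.292% lower. No member was lower at an unadjusted p under 0.05 in edgeR, while limma on the log2 scores called 1 member, PSMD9, lower. For PSMD9 the edited reads were 0 of 187 in sorted P-bodies, against 3 of 639 in cytosol, which is within the floor of 3 edited reads. The median score of the listed members was 0.458% and 0.486% in the sorted P-body libraries and 0% in both cytosol libraries. Over all listed genes the medians were 2.21% and 2.50% in sorted P-bodies, against 0.546% and 0.522% in cytosol. After centring 9 members were higher and 0 lower, beside 13.8% and 3.66% of all genes. The 9 include PSMA3 and PSMD14, which had no edited read in cytosol and could only come out higher. Without sorted P-body library 1 or 2, 12 members could be tested. The 6 without an edited cytosol read no longer passed the filter. The median log2 odds ratio of the 12 was 3.90 and 3.95, beside 2.39 and 2.19 over all genes tested.

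PSMD12, the PCI-domain lid subunit, stood far above the other members. Its C-to-U score was 20.2% and 20.7% in sorted P-bodies, against 1.92% and 1.32% in cytosol, from 6892 and 5587 reads, a ratio of pooled scores of 12.7 (10.2 to 15.9; log2 odds 3.97 ± 0.27 SE, adjusted p = 1.56e-06). PSMD10 had 10.9% and 10.5% in sorted P-bodies, against 0% and 0.157% in cytosol. With 3 edited reads in cytosol, its ratio was 132, with an interval from 44.4 to 643. PSMC6 had 7.56% and 8.61% in sorted P-bodies against 0.156% and 0.390% in cytosol. PSMA1 had 6.94% and 7.22% in sorted P-bodies, where 64 of 907 reads were edited, against 0.189% and 0.177% in cytosol. PSMD6 reached 5.39% and 7.67% in sorted P-bodies against 0.273% and 0% in cytosol. These 5 had the highest C-to-U scores of the members in sorted P-bodies, and all 5 were called higher after centring. The sizes of 3 of them moved with the cytosol library used: log2 odds were 6.19 for PSMD10 without library 1 (7.08 with all), 5.71 for PSMC6 without library 2 (4.95 with all) and 4.62 for PSMD6 without library 2 (5.63 with all). With the other cytosol library left out, PSMD10 and PSMD6 kept no edited cytosol read.

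Several members were edited in sorted P-bodies and listed at 0 in cytosol. PSMA3 had 3.62% and 2.84% in sorted P-bodies, against 0 of 2760 reads in cytosol, which allows a share of up to 0.109% and makes it at least 30.3-fold higher against a floor of 3 reads over the group. PSMD14 had 1.89% and 2.36% in sorted P-bodies against 0 of 3487 reads in cytosol, at least 24.4-fold higher. PSMA4 and PSMA5 were at least 16.8-fold and 5.71-fold higher. PSMC1 had 0.962% and 0.125% in sorted P-bodies against 0 of 3284 reads in cytosol, at least 6.42-fold higher, a call lost under limma (adjusted p = 0.0879). PSMD11 had 1.39% and 2.60% in sorted P-bodies, against 1 edited read of 9308 in cytosol, a ratio of 177 with an interval from 30.6 to 7104 and log2 odds of 6.29 without cytosol library 2 (7.18 with all). PSMB2 was the single beta gene tested and called higher, with 2.89% and 2.60% in sorted P-bodies against 0.327% and 0.0754% in cytosol, and log2 odds of 5.18 without cytosol library 1 and 3.11 without cytosol library 2 (3.87 with all).

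Other members had almost no C-to-U edits in either fraction. PSMB5 had 0 of 1752 reads in sorted P-bodies, against 0 of 3772 in cytosol, and PSMA7 had 0 of 1838 in sorted P-bodies against 0 of 3846 in cytosol. PSMB6 and PSMB7 had 1 and 2 edited reads in sorted P-bodies and none in cytosol. PSMD2, the member with the most reads, had 1 of 12858 in sorted P-bodies, against 0 of 7433 in cytosol. PSMD8, PSMD3 and PSMC3 had 1, 2 and 1 edited reads in sorted P-bodies. PSMD4 had 0.812% and 0% in sorted P-bodies, against 0 of 5550 reads in cytosol, and was not tested because 1 library alone held edited reads. PSMD1, with 0.249% and 0.591% in sorted P-bodies against 0.201% and 0.158% in cytosol, did not pass (adjusted p = 0.108).

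The 3 readouts of the sort share the same libraries, so they are set side by side as values only. Over all genes tested in each, 28.8% were higher in abundance, 73.5% in A-to-I score and 68% in C-to-U score. PSMA1, PSMC1, PSMC2, PSMC6, PSMD6 and PSMD12 were called higher in each readout. For PSMC1 the C-to-U call could only come out higher, with 0 of 3284 reads edited in cytosol. Its abundance is also uncertain through the overlap with NRDE2. The share of all genes called higher in all 3 together was not counted. After centring PSMC1 (log2 odds 0.31), PSMC2 (0.48) and PSMC6 (-0.064) lost their A-to-I calls, and PSMC1 and PSMC2 their C-to-U calls. The abundance calls of PSMA1, PSMC1 and PSMD6 were lost in some settings, as given above. The A-to-I call of PSMA1 (log2 odds 2.44) was lost under limma, after centring, without sorted P-body library 2 (log2 odds 0.98) and without cytosol library 2. PSMD10 had a lower abundance, at 75.03 and 70.9 CPM in sorted P-bodies against 92.5 and 103 CPM in cytosol, and some of the largest rises in both scores. PSMD2 was 2.54-fold higher in abundance and was called higher in neither score.

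Among the 28 partner genes 27 were higher in A-to-I score in sorted P-bodies, with TXNL1 (log2 odds 5.24), PSMG4 (5.03) and SEM1 (3.75) largest, and PSME1 did not pass. The first 3 rest on 2, 1 and 3 edited reads in cytosol. For C-to-U, 21 of 27 tested were higher. The largest log2 odds ratios were those of the core assembly factor PSMG2 (5.97), the activator PSME3 (5.81) and the nuclear import adaptor AKIRIN2 (5.68). They rest on 1, 3 and 1 edited reads in cytosol, and their ratios had intervals from 12.5 to 3029, 19.2 to 291 and 10.4 to 2557. None was lower in either score at an unadjusted p under 0.05 in edgeR or limma.

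The third comparison asks what the EDC4 knockdown did to the subunit mRNAs in whole cells. EDC4 itself had 40.3 and 32.7 CPM in siEDC4 libraries, against 109.8 and 106 CPM in siNC libraries (log2 -1.56 ± 0.14 SE, adjusted p = 2.63e-25), as its label states. No count table was used here for the knockdown, so the reads column of its A-to-I table served, with 5697417 to 6251787 reads per library. Of 30 members listed, 0 were called in edgeR, 0 had an unadjusted p under 0.05 and DESeq2 called 0. Of 10642 genes tested, 0.432% were higher and 0.132% lower. Log2 fold changes ran from -0.12 (PSMD9) to 0.16 (PSMC3), with a median of -0.01, beside -0.00 over all genes. For most members the SE lay between 0.11 and 0.13 on the log2 scale.

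**Figure D4:**
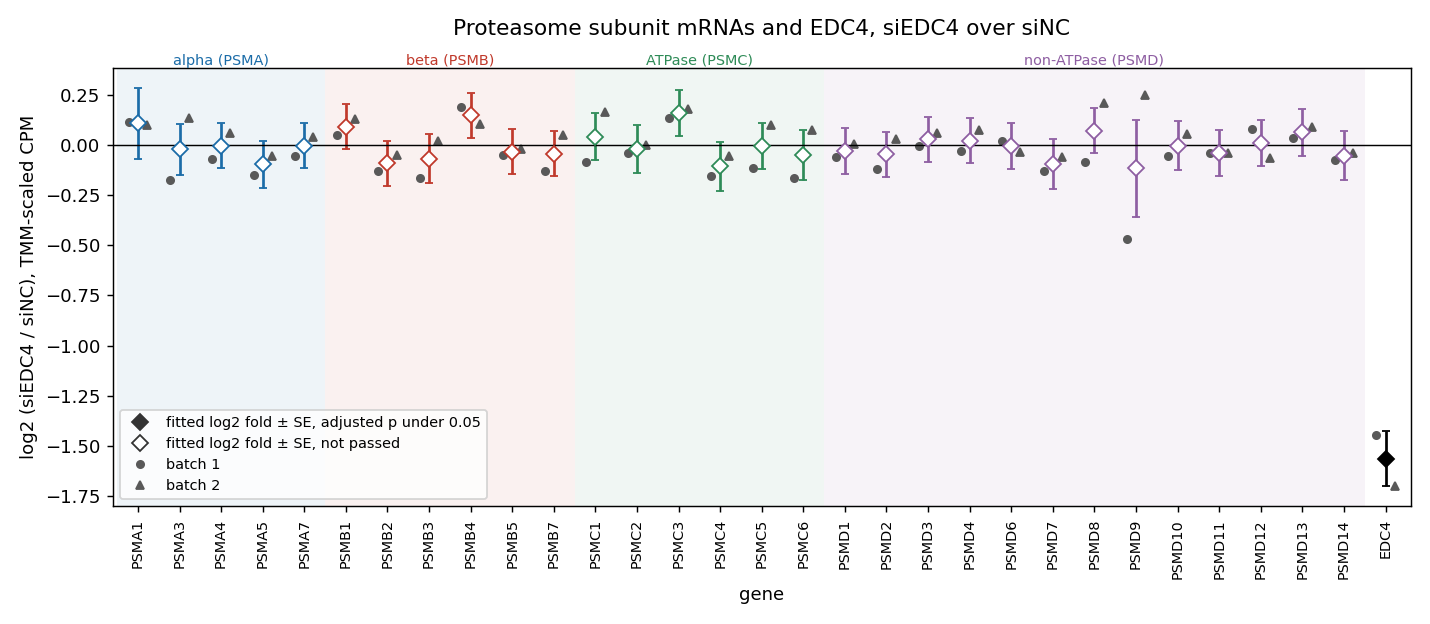
Log2 ratio of TMM-scaled CPM, siEDC4 over siNC, for the 30 members listed and for EDC4. Diamonds give the fitted fold change ± SE (filled where the adjusted p was under 0.05), circles batch 1 and triangles batch 2. All members lie close to 0 and EDC4 lies at -1.56.

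Levels in the knockdown libraries differed little. PSMC3, with the largest fitted rise, had 175 and 175 CPM in siEDC4 libraries, against 159 and 154 CPM in siNC libraries (log2 0.16 ± 0.11 SE, adjusted p = 0.868). PSMB4 had 260.3 and 259.8 CPM in siEDC4 libraries, against 229 and 242 CPM in siNC libraries (log2 0.15 ± 0.11 SE, adjusted p = 0.884). The groups are separate in both, which with 2 libraries per group is frequent without any change. Among catalytic beta genes PSMB5 had 165 and 176 CPM in siEDC4 libraries against 172 and 178.5 CPM in siNC libraries. PSMB7 had 141 and 152 CPM in siEDC4 libraries against 155 and 147.5 CPM in siNC libraries. The groups overlap in both genes. The ubiquitin receptor PSMD4 had 207 and 215 CPM in siEDC4 libraries against 211 and 205 CPM in siNC libraries, and PSMD14 had 95.2 and 113 CPM in siEDC4 libraries against 100.5 and 117 CPM in siNC libraries. With siEDC4 library 1 left out, PSMB1, PSMB4, PSMC3 and PSMD8 were called higher. With siEDC4 library 2 left out, PSMB4 and PSMC3 were called higher and PSMA5 (log2 -0.21) and PSMB3 (log2 -0.18) lower. The calls of higher members in these settings had log2 changes of 0.14 to 0.22. In those fits the spread comes from the siNC libraries, which differed by no more than sampling noise. Of the 28 partners 0 were called. NFE2L1, the transcription factor that induces subunit genes, had an unadjusted p of 0.00365 (log2 0.33 ± 0.11 SE, adjusted p = 0.228).

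Editing after the knockdown gave no calls. For A-to-I, 25 of 30 listed members were tested and 0 were called (edgeR, background 0%), 2 had an unadjusted p under 0.05 and limma called 0. For C-to-U, 29 of 31 listed members were tested and 0 were called (background 0%), 4 had an unadjusted p under 0.05 and limma called 0. Of all genes 0 were called for either editor, with 491 and 377 at an unadjusted p under 0.05. On simulated data of this design the test did not recover changes, so a count of 0 does not show that scores were alike. The members' median A-to-I score was 0.673% and 0.887% in siEDC4 libraries, against 0.621% and 0.811% in siNC libraries. Over all genes it was 1.22% and 1.29% in siEDC4 libraries, against 1.02% and 0.993% in siNC libraries. The members' median C-to-U score was 0.421% and 0.363% in siEDC4 libraries, against 0.274% and 0.256% in siNC libraries.

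The 2 members under the unadjusted threshold for A-to-I were lid genes. PSMD6 had 0.484% and 0.355% in siEDC4 libraries, against 0 of 1709 reads in siNC libraries, and PSMD7 had 1 of 1129 reads in siEDC4 libraries, against 9 of 1226 in siNC libraries (adjusted p = 0.845 for each). For C-to-U they were PSMA4, PSMB1, PSMC4 and PSMD3. PSMA4 had 0.996% and 0.429% in siEDC4 libraries, against 0% and 0.256% in siNC libraries, and PSMD3 had 0.609% and 0.552% in siEDC4 libraries against 0.222% and 0% in siNC libraries (adjusted p = 0.996 for each). PSMB1 had 6 of 2518 reads edited in siEDC4 libraries, against 0 of 2415 in siNC libraries, and PSMC4 had 4 of 1256 in siEDC4 libraries against 0 of 1383 in siNC libraries. The scores rest on few edited reads.

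**Figure D5:**
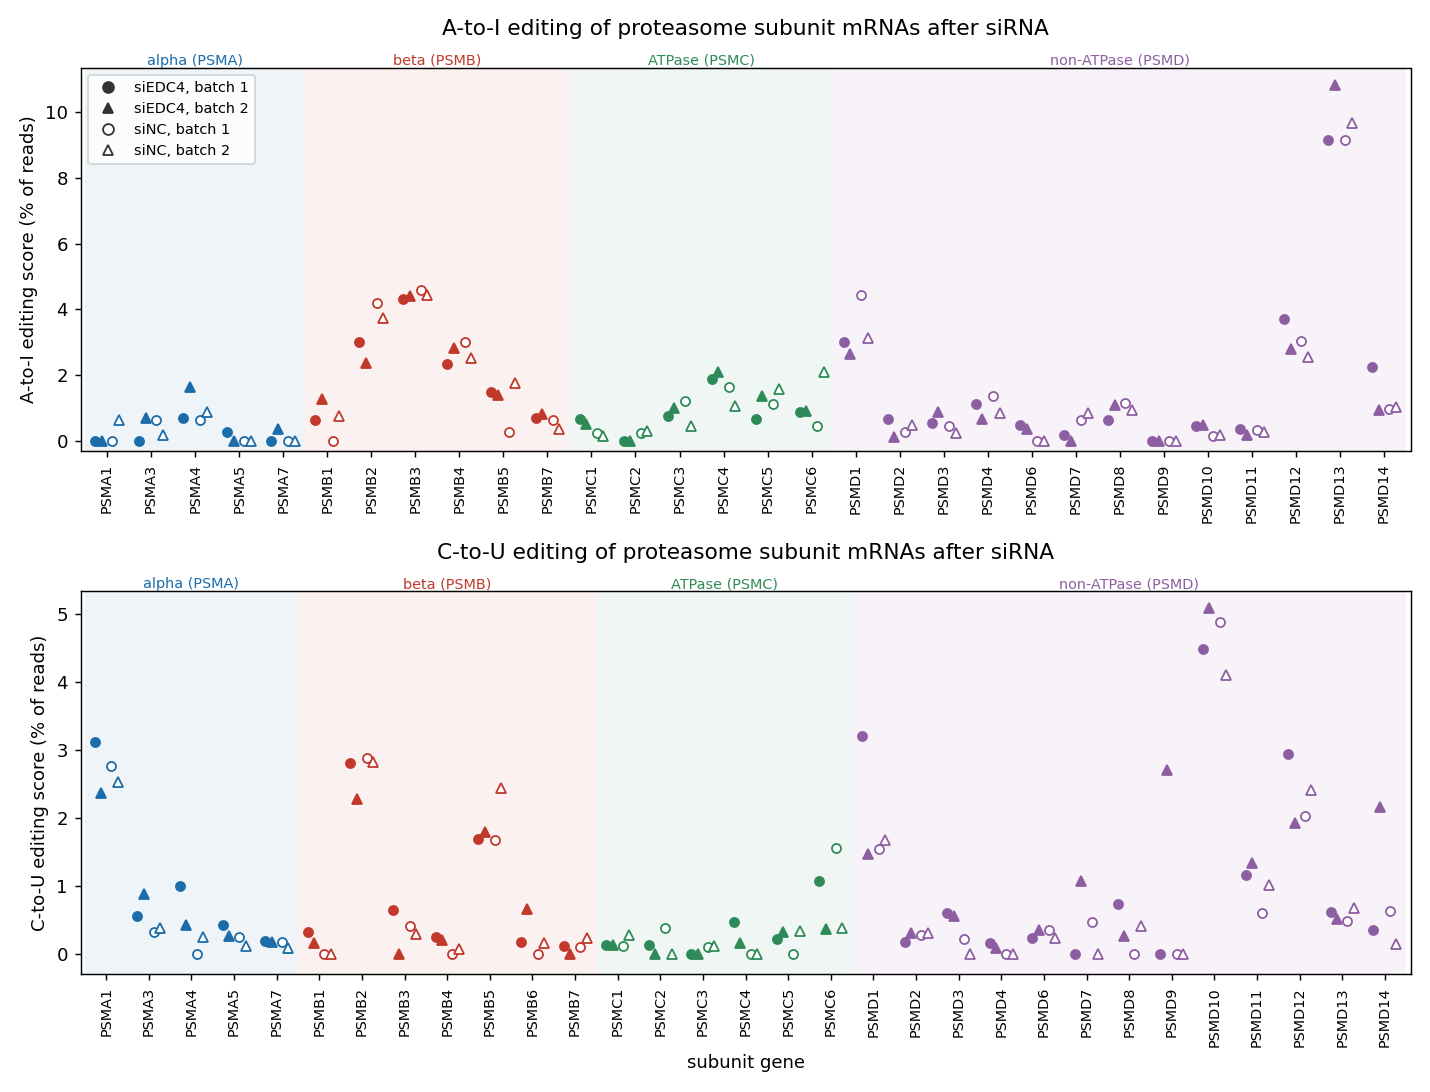
Editing scores (% of a gene's reads) of the members listed in the knockdown tables, A-to-I above and C-to-U below. Filled symbols are siEDC4 and open symbols siNC, with circles for batch 1 and triangles for batch 2. PSMD13 has the highest A-to-I and PSMD10 the highest C-to-U scores under both siRNAs.

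The following genes were picked after their values were seen, and the tables were made separately, so that levels are given side by side without a test. PSMD13, a lid subunit, had the highest A-to-I score in whole cells, at 9.17% and 10.8% in siEDC4 libraries, against 9.17% and 9.66% in siNC libraries. In the sort it had 7.52% and 6.21% in sorted P-bodies, against 1.45% and 0.932% in cytosol. PSMB3 had 4.32% and 4.40% in siEDC4 libraries, against 4.59% and 4.42% in siNC libraries, above its 0.465% and 1.14% in cytosol. PSMB4, at 13.1% and 13.5% in cytosol, had 2.34% and 2.84% in siEDC4 libraries, against 3.02% and 2.52% in siNC libraries. PSMB5 had C-to-U scores of 1.69% and 1.80% in siEDC4 libraries, against 1.68% and 2.45% in siNC libraries, and none in either fraction of the sort. PSMD10, PSMA1 and PSMD12 had C-to-U scores among the highest in both sets of tables. PSMD10 had 4.48% and 5.09% in siEDC4 libraries, against 4.89% and 4.11% in siNC libraries, and PSMD12 had 2.94% and 1.93% in siEDC4 libraries against 2.03% and 2.42% in siNC libraries.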

How the data were processed

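Per the submitters' processing notes, reads were handled with FastQC 0.11.9, cutadapt 1.18, STAR 2.7.9a and featureCounts 2.0.1 on hg38. The sources used here do not give the annotation, strand use, multiple matches or site calling. The authors deposited raw counts per gene for the sort. For each editor and contrast they deposited edited reads and reads per gene, entered as estimated counts because 3 broken lines per table, left out, hold values that are not whole. The deposited editing score is a fraction of a gene's reads, equal to edited reads over reads within 5.0e-08, and is given as a percentage. The sort editing tables hold 12048147 to 15947999 reads per library.

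Counts were tested with edgeR 4.0.16 (R 4.3.3), quasi-likelihood, TMM, filterByExpr and Benjamini-Hochberg adjustment over all genes. Editing was tested with edgeR on edited and unedited reads, with an abundance effect per library, where 2 or more libraries held an edited read. An SE restates the test's F. The siNC libraries were summed in the knockdown tests. Alternatives were DESeq2 1.42.0, limma 3.58.1 on log2 scores plus a pseudocount (0.759% and 0.132% in the sort, 0.312% and 0.388% in the knockdown, A-to-I first), scaling, filters, centring, gene length, the replicate block and leaving out libraries. The labels' batch pairs the libraries; deviations of same-numbered libraries correlated at 0.066 (sort) and -0.039 (knockdown). Tests were checked on simulated data.

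Members and lists were chosen with earlier results of these data known. Values per library are given for the largest rise and fall of each class and comparison, for catalytic and immunoproteasome beta genes, PSMD4 and PSMD14; partners are named by the 3 largest changes each way among those that passed, of which 1 is not reported here. Codon features and sequences came from GENCODE v29 principal transcripts.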

Additional observations from a re-analysis of the deposited data

How the results depend on the processing

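The counts of called members in the sort were within 1.5 times of 25 (abundance) and 28 (A-to-I) under every alternative run, except the A-to-I count with library medians centred, which was 16. The C-to-U count of 14 was 9 with centring. With a sorted P-body library left out, 12 members could be tested in place of 18, so counts there do not compare with 14. With a library left out the abundance count was 20 to 29, with 5 to 12 higher and 14 to 18 lower, and the A-to-I count 24 to 26. In the knockdown the read count was 0 to 4 when 1 library was left out, 4 without either siEDC4 library, and both editing counts stayed at 0 under all alternatives run. Centring turned 11 A-to-I log2 odds ratios of the sort below 0: PSMB2 -0.20, PSMB5 -0.67, PSMB7 -0.41, PSMC3 -0.23, PSMC4 -0.61, PSMC5 -0.44, PSMC6 -0.064, PSMD1 -0.95, PSMD2 -1.33, PSMD3 -0.074 and PSMD8 -1.02, since it sets scores against the library's median gene. With the replicate block, the pairing by batch gave 8 higher and 17 lower members in abundance, 27 and 0 in A-to-I, 14 and 0 in C-to-U and 0 in each knockdown comparison, and apart from PSMB4 changed no call. Library-size scaling moved the median of all genes to -0.23 and gave 6 higher and 19 lower members.

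The abundance calls that were lost in at least 1 setting were those of PSMA1, PSMB4, PSMC1, PSMC5, PSMD6, PSMD7 and PSMD10. PSMB4 (adjusted p = 0.0697) and PSMD10 (adjusted p = 0.121) lost theirs with the length trend removed. Depth limits the editing scores of PSMD9, with 187 reads in the sorted P-body libraries, and of PSMA6, with 160, and with 2 libraries per group the calls rest on a spread shared across genes. The causes of these changes were not tested.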
